A study of Mus musculus with 32 samples.

Results

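The uterus of 4 mice at embryonic day 6.5 of pregnancy (E6.5) was compared with the uterus of 4 non-pregnant (NP) mice. These 8 samples were taken by their labelled time point from a series of 32, which holds 7 groups. All mice were of the inbred strain FVB/N and no allele or treatment is named besides. E6.5 counts from the morning a vaginal plug was found, which is E0.5. One mouse gave one array, an Illumina MouseRef-8 v2 bead array that reads RNA abundance as the brightness of a probe, and the RNA of several sites of a uterus was pooled before labelling. The NP mice were picked at random, their ages spread wider than those of the pregnant mice, and the sources used here give no oestrous stage.

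The 2 groups also differ in how the tissue was taken. In pregnant mice the uterus was cut at implantation sites, embryonic and placental tissue was removed and the decidua was scraped away with a blade, whereas no such step is described for the NP mice. Pregnancy and dissection therefore cannot be told apart in any difference given here, and in a whole tissue fewer cells of a type and less RNA per cell cannot be told apart either. Acta2, Des and Myh11 of smooth muscle and Esr1 and Pgr, the oestrogen and progesterone receptors, were detected on all 8 arrays. So were 8196 of the 13439 genes tested, so this detection does not identify the tissue. By E6.5 the mouse embryo has attached to the uterus and decidua has formed around it. The luminal epithelium next to it is lost, the stroma turns into decidua under progesterone, and the glands secrete proteins into the lumen, while the muscle layer outside stays quiet. In a cycling uterus the epithelium, stroma and immune cells change with oestrogen and progesterone over a few days.

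Between 13793 and 14357 probes were detected per array at E6.5 and between 13827 and 14322 in NP (detection p below 0.05). The means were 14017 ± 245 probes at E6.5 and 14098 ± 206 in NP (SD, n = 4 each), and their difference of -81.25 probes did not pass a 2-sided exact permutation test (p = 0.629, where 4 against 4 mice can reach 0.0286). Levels below are normalised log2 intensities, and a change is the log2 level at E6.5 minus that in NP, so that 1 unit is a doubling of the E6.5 signal over the NP signal. A gene was called where limma's moderated test, fitted with all 7 groups, gave an adjusted p up to 0.05 after Benjamini-Hochberg adjustment over 13439 genes. The test takes 1 spread per gene for all 7 groups. Its SE, interval and p therefore do not measure the spread among the NP mice, which was wider for many genes. Of the 13439 genes, 1102 were called, which is 8.2% of those tested. There were 616 genes higher at E6.5 (4.58%) and 486 lower (3.62%), and the median change over all genes was -0.005. The split of calls moved with the scaling and with the arrays that were fitted. With median scaling in place of quantile normalisation 474 genes were higher and 630 lower. With the 8 arrays normalised and fitted alone 419 were higher and 191 lower. With the normalisation kept and only the fit limited to these 8 arrays, 419 were higher and 193 lower.

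**Figure D1:**
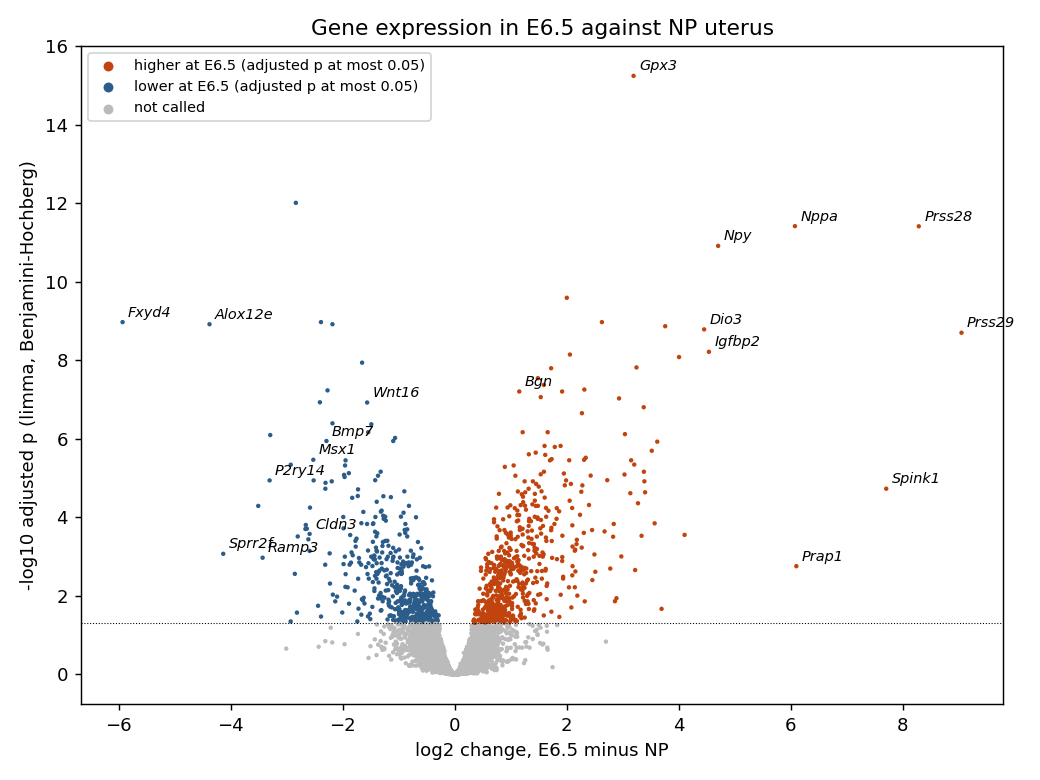
Log2 change (E6.5 minus NP) against -log10 adjusted p for the 13439 genes, 1 point a gene, with the dotted line at an adjusted p of 0.05. The 616 genes higher at E6.5 reach a fitted change of 9.05 (Prss29) and the 486 lower genes reach -5.93 (Fxyd4), both against a probe not well above background in the other group.

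Large changes were more frequent upward. Among called genes 73 were higher by more than 2 log2 units and 40 were lower by as much, and past 3 units there were 29 higher and 7 lower genes. In 862 of the 1102 called genes the 4 E6.5 mice lay wholly above or wholly below the 4 NP mice. Over all genes tested 1640 (12.2%) had groups that did not overlap. Of the called genes 45 had no detected probe on any NP array and 50 had none on any E6.5 array. For these a change is given as a bound, the brighter group's mean over the lowest signal that counts as detected. Such a bound, written as "at least", concerns the group means and takes no account of the spread among mice.

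The largest increases among called genes were in implantation proteinases and a proteinase inhibitor. Prss28 and Prss29 encode the implantation serine proteinases, which are secreted by uterine glands and which in mice take part in hatching and implantation. Prss29 read 13.39, 13.68, 13.74 and 14.00 in the E6.5 mice, against 4.62, 4.83, 4.75 and 4.43 in the NP mice. This probe was not well above background on any NP array, so its fitted change of 9.05 ± 0.78 (SE, adjusted p = 1.99e-09) is a difference from background. The 1 of its 3 probes that was detected in NP, on 3 of the 4 arrays, gave a change of 7.65 (adjusted p = 1.74e-11 over the 20169 kept probes). Prss28 read 12.34, 12.67, 12.77 and 13.20 at E6.5, against 4.40, 4.60, 4.41 and 4.44 in NP, where it was not well above background, so it was at least 219-fold higher at E6.5 (adjusted p = 3.85e-12). These genes are neighbours on chromosome 17 and may share signal, since a probe can bind a close relative of its target.

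The promoter windows of both proteinase genes are shown, since these neighbours rose together, from 250 bases before to 50 bases after the start of transcription (RefSeq, GRCm38.p6, plus strand, chr17:25308396-25308695 for Prss28 and chr17:25318404-25318703 for Prss29). Capitals mark the runs of at least 12 bases that both windows hold.
Prss28: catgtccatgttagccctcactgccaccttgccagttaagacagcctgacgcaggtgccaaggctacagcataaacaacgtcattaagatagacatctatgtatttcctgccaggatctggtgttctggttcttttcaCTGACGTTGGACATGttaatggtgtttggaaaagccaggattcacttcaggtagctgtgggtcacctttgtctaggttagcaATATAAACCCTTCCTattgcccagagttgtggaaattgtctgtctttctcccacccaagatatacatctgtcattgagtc
Prss29: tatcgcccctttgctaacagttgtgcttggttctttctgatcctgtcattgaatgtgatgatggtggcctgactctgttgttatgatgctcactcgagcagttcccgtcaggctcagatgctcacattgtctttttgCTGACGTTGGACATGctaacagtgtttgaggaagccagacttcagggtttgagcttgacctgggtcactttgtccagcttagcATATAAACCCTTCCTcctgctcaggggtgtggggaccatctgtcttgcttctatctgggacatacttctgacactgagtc
There are 2 such runs, each of 15 bases. Counted from the start, the first begins at position -112 in Prss28 and -113 in Prss29, and the second at position -30 in both. The second run holds TATAAA, the core of a TATA box, which is found on the given strand in 8.32% and on either strand in 13.6% of the 32817 windows of this length in the table. A match is a description of the sequence and not evidence of binding.

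Spink1, listed as Spink3 in older mouse annotation and an inhibitor of trypsin-like proteinases, was 13.58, 13.85, 13.67 and 13.95 at E6.5. In the NP mice it was 4.34, 4.39, 9.78 and 5.73, so the groups did not overlap but NP replicate 3 stood well above the other NP mice. The change was 7.70 ± 1.11 (SE, adjusted p = 1.87e-05) and 8.94 without that mouse. Prap1, a proline-rich acidic protein secreted by uterine epithelium, read 13.73, 14.18, 13.79 and 14.30 at E6.5, against 12.32, 8.19, 4.49 and 6.61 in NP. The NP mice ranged from undetected to 1.41 units below the lowest E6.5 mouse, and the change of 6.10 ± 1.28 (adjusted p = 0.00176) was 7.57 without NP replicate 1 and 4.96 without NP replicate 3.

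Other secreted products did not all go the same way. Gpx3, the extracellular glutathione peroxidase, was higher by 3.19 ± 0.14 (SE) and had the smallest adjusted p of all genes (5.67e-16), with E6.5 mice between 13.90 and 14.31 and NP mice between 10.63 and 11.09. Klk1, the kallikrein that releases kinin, was higher by 4.10 (adjusted p = 0.00028). Klk1b5, a relative named after its values were seen, was at least 7.44-fold higher (adjusted p = 0.0022), and probes may share signal within this large family. Its call was lost without background correction. The other Klk1b5 probe, detected on 2 E6.5 arrays and no NP array, was not called (change 0.36, adjusted p = 0.756 over the kept probes). Muc1, the mucin of the apical epithelial coat, was lower by -2.23 (adjusted p = 0.00488), at 5.44 to 5.75 in E6.5 mice and 6.04 to 10.09 in NP mice. Its change was -1.49 without NP replicate 1 and -2.84 without NP replicate 3. Lif, the cytokine that starts implantation in mice, was detected on 1 E6.5 array by the probe taken and on 1 NP array, and is given no fold. In the list of implantation proteinases, inhibitors and gland products 6 of 15 measured genes rose, 3 fell and 6 did not pass the test, and the lower count was 1 without E6.5 replicate 1, 3 or 4 or NP replicate 4.

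**Figure D2:**
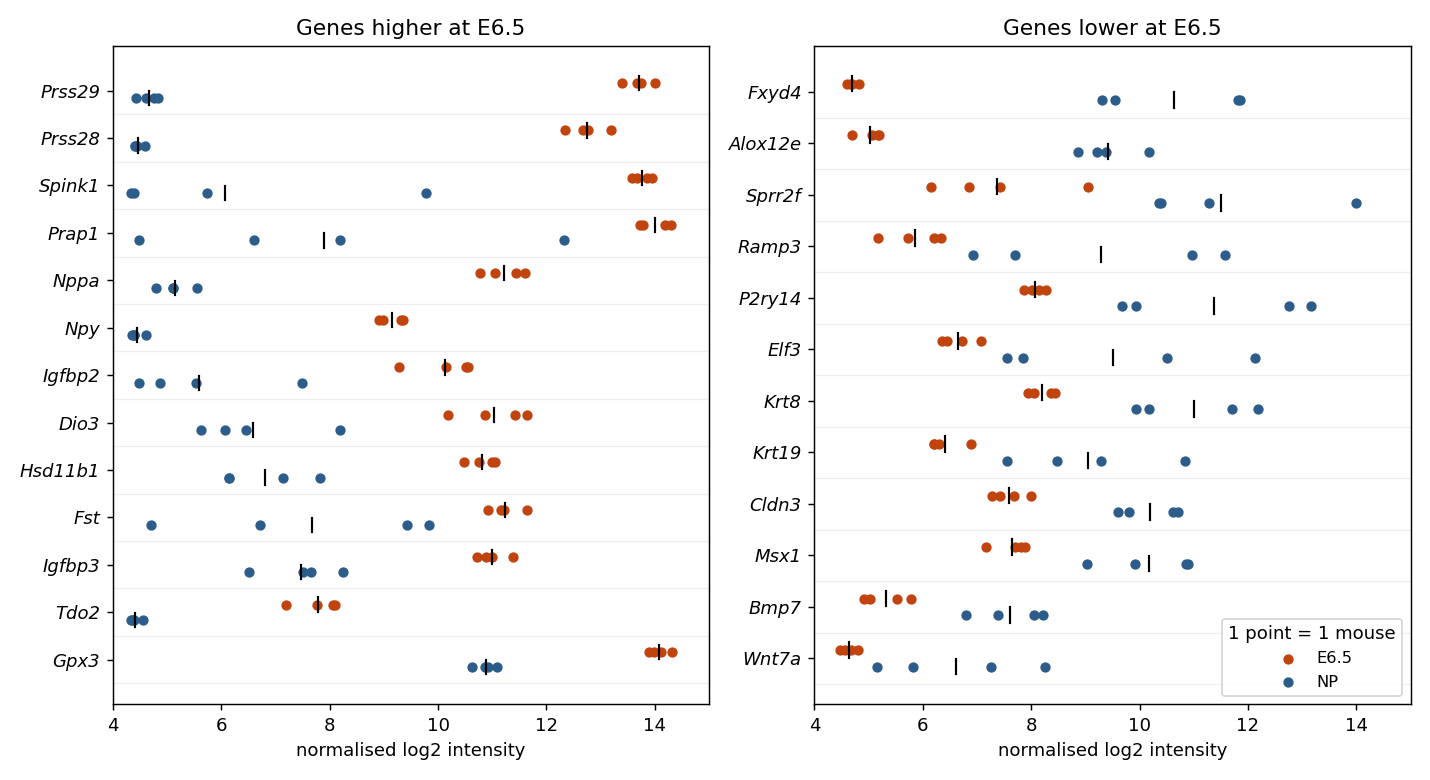
Normalised log2 intensity of 13 genes higher (left) and 12 genes lower (right) at E6.5, 1 point a mouse, with a bar at each group's mean, E6.5 drawn above NP. No gene shown has overlapping groups, and the NP mice spread over 7.83 units for Prap1 while the E6.5 mice spread over 0.57.

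Hormones of fluid balance and vessel tone held 3 further increases, Nppa, Npy and Guca2b. Nppa encodes atrial natriuretic peptide, which relaxes vessels and raises cyclic GMP in its target cells. It was 10.77, 11.44, 11.05 and 11.60 at E6.5, against 5.11, 4.80, 5.11 and 5.55 in NP. The lowest E6.5 mouse lay 5.22 units above the highest NP mouse, and the change was 6.07 ± 0.39 (SE, adjusted p = 3.83e-12). Npy, neuropeptide Y, was 9.31, 9.36, 8.91 and 8.99 at E6.5 and not well above background in any NP mouse, at least 18.0-fold higher (adjusted p = 1.22e-11). Guca2b, uroguanylin, which acts through a membrane guanylate cyclase, read 8.67, 8.78, 10.14 and 8.67 at E6.5, against 6.51, 4.80, 5.21 and 4.96 in NP. Its change of 3.69 ± 1.04 had an adjusted p of 0.0215 and was no longer called without E6.5 replicate 3, NP replicate 2 or NP replicate 4 (adjusted p 0.0531 to 0.0755).

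Receptor components moved both ways. Calcrl, the calcitonin-like receptor, was higher by 0.89 (adjusted p = 0.0259) and Ramp1, one of its partners, by 1.49 (adjusted p = 0.00946). Calcrl was not called without any of 5 mice (E6.5 replicates 1 and 3, NP replicates 1, 2 and 4, adjusted p 0.0513 to 0.109), nor Ramp1, whose groups overlapped, without NP replicate 1 or 2 (adjusted p 0.0504 and 0.0606). Ramp3, which turns the calcitonin-like receptor into an adrenomedullin receptor, was 6.20, 6.34, 5.17 and 5.72 at E6.5, against 10.96, 11.57, 6.92 and 7.70 in NP. The change was -3.43 ± 0.69 (SE, adjusted p = 0.00107), and it was -2.67 without NP replicate 2 and -4.22 without NP replicate 3. Of 14 measured natriuretic peptides, guanylins and receptors 4 rose, 1 fell and 9 did not pass the test. The higher count depended on single mice: it was 2 without E6.5 replicate 3, NP replicate 1 or NP replicate 4, and 1 without NP replicate 2. The lower count was 2 without NP replicate 4.

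Genes of decidual cells were among those higher, in samples from which decidua had been scraped. Decidual cells arise from uterine stroma after attachment and feed and enclose the early embryo. Of 36 measured decidual genes 11 rose, none fell and 25 did not pass the test, with a median change of 0.20. Dio3, the deiodinase that inactivates thyroid hormone, was 11.42, 10.19, 11.64 and 10.87 at E6.5, against 8.19, 6.06, 6.45 and 5.62 in NP (change 4.45 ± 0.38, SE, adjusted p = 1.63e-09). Tdo2, which breaks down tryptophan, was 7.76, 7.20, 8.06 and 8.10 at E6.5 and not well above background in NP, at least 7.00-fold higher (adjusted p = 1.57e-07). Igfbp3, a binding protein of insulin-like growth factors, was 10.72, 10.89, 11.00 and 11.38 at E6.5, against 6.52, 7.51, 8.24 and 7.65 in NP (change 3.52, adjusted p = 2.01e-06). Its relative Igfbp2 rose by 4.54 (adjusted p = 6.08e-09), with 9.28 to 10.56 at E6.5 and 4.48 to 7.49 in NP, and by 5.17 without NP replicate 1.

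Further decidual regulators rose by smaller amounts. Wnt6, a secreted Wnt ligand, was higher by 2.30 (adjusted p = 0.000249), and Prkg2, a cyclic GMP-dependent kinase, by 2.27 (adjusted p = 2.23e-07). Fst, follistatin, which binds activin, was 11.17, 10.92, 11.21 and 11.65 at E6.5, against 6.71, 4.71, 9.83 and 9.42 in NP. The NP mice differed among themselves by up to 5.12 units, and the change of 3.57 (adjusted p = 0.000142) was 2.58 without NP replicate 2 and 4.29 without NP replicate 3. Hand2, a stromal factor that acts below the progesterone receptor, was higher by 0.93 (adjusted p = 0.011), though not called without E6.5 replicate 3 (adjusted p = 0.0593). Hoxa11, a homeobox factor, was higher by 0.82 (adjusted p = 0.0244) and was not called without E6.5 replicate 2 or 3 or NP replicate 1 or 2 (adjusted p 0.0622 to 0.136).

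Several well-known decidual genes gave no call. Bmp2 was detected on 1 E6.5 array and on no NP array, and Prl8a2, a prolactin-family hormone of decidua, was not well above background on any of the 8 arrays, so neither is given a fold. Wnt4 read 6.10 to 6.75 at E6.5 and 5.13 to 7.36 in NP (change 0.08, 95% interval -1.07 to 1.22, adjusted p = 0.978). Hoxa10 changed by -0.17 (interval -0.75 to 0.41, adjusted p = 0.852). In the shorter list of decidua markers 3 of 9 rose, and its mean level was 7.00 to 7.74 at E6.5 and 5.89 to 6.44 in NP. Markers of trophoblast and placenta gave 0 calls of 11 by limma, with 8 of the 11 not detected on any of the 8 arrays, 0 at an unadjusted p under 0.05, none called under any alternative and a mean level of 4.48 to 4.80 at E6.5 and 4.47 to 4.53 in NP. Markers of yolk sac and embryo gave 0 calls of 10, 0 at an unadjusted p under 0.05 and 0 under every alternative, with 5 of the 10 not detected and a mean level of 4.88 to 5.00 at E6.5 and 4.62 to 4.92 in NP.

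Genes of steroid action changed in both directions, and of 16 measured steroid and peptide hormone receptors and steroid enzymes 2 rose and 1 fell (2 fell without NP replicate 3 or 4). Progesterone maintains pregnancy through its receptor Pgr, in stroma and muscle as well as epithelium. Pgr itself was 7.07, 6.75, 6.77 and 7.03 at E6.5, against 8.58, 8.35, 7.06 and 7.58 in NP. It was called as lower (change -0.99 ± 0.22, SE, adjusted p = 0.00258), although the groups overlapped, with E6.5 replicate 1 just above NP replicate 3. The call was lost when only the 8 arrays of these 2 groups were fitted. Esr1 was 9.09 to 10.17 at E6.5 and 8.90 to 10.30 in NP, a change of 0.03 with a 95% interval of -0.68 to 0.74 (adjusted p = 0.988).

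The 2 that rose are enzymes that set local steroid levels, while others of this kind, such as Hsd11b2, Hsd17b1 and Hsd17b2, did not pass the test. Hsd11b1, which regenerates active glucocorticoid, was 10.48, 10.99, 10.76 and 11.05 at E6.5, against 7.82, 6.15, 7.14 and 6.15 in NP, a change of 4.00 ± 0.37 (SE, adjusted p = 8.27e-09). Akr1c18, which inactivates progesterone, was 7.43, 8.04, 8.5 and 8.4 at E6.5, against 6.99, 4.69, 4.62 and 4.52 in NP, and only NP replicate 1 had it detected. The change was 2.89 (adjusted p = 0.0115) and 3.48 without that mouse.

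Of 21 measured progesterone response genes 6 rose, 4 fell and 11 did not pass the test. Fkbp5, a cochaperone of steroid receptors, was higher by 1.64 (adjusted p = 0.0004) and Errfi1, a feedback inhibitor of the EGF receptor, by 1.45 (adjusted p = 1.41e-05). The 4 that fell, Msx1, Ihh, Sox17 and Gata2, are 3 transcription factors and a secreted ligand. Msx1, a homeobox factor, was 7.17, 7.89, 7.71 and 7.82 at E6.5, against 9.03, 9.91, 10.85 and 10.89 in NP (change -2.53, adjusted p = 3.42e-06). Ihh, the hedgehog ligand that the epithelium sends to the stroma, was not well above background at E6.5 and read 4.59, 5.67, 7.55 and 7.95 in NP. It was at least 2.74-fold lower at E6.5 (adjusted p = 0.00161), with an overlap at NP replicate 1, where it was not detected, and its fitted change of -1.88 was -2.50 without that mouse. The transcription factor Sox17 was lower, with a change of -1.35 (adjusted p = 0.00983). Gata2 was lower with a change of -0.68 (adjusted p = 0.0132) and was not called without NP replicate 3 or 4 (adjusted p 0.0614 and 0.0662).

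Epithelial markers were among the genes lower at E6.5. Of 18 measured epithelial markers 8 fell, none rose and 10 did not pass the test, with a median change of -1.12. Their mean level was 6.33 to 6.76 at E6.5 and 7.13 to 8.43 in NP. Krt8, a keratin of simple epithelia, was 7.95, 8.44, 8.36 and 8.06 at E6.5, against 12.19, 11.71, 9.94 and 10.18 in NP (change -2.80 ± 0.50, SE, adjusted p = 0.000308). Krt19 was 6.21 to 6.89 at E6.5 and 7.56 to 10.84 in NP (change -2.64, adjusted p = 0.000195), and -2.04 without NP replicate 1. Cdh1, E-cadherin, fell by 1.67 on the log2 scale (adjusted p = 0.00161), Esrp1, an epithelial splicing factor, by 2.10 (adjusted p = 0.0105) and Grhl2, a transcription factor of epithelia, by 1.70 (adjusted p = 0.00141). Krt18, the partner of Krt8, did not pass the test (change -1.09, interval -2.04 to -0.14, adjusted p = 0.174).

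Elf3, an epithelial ETS factor, was 6.44, 6.72, 7.08 and 6.36 at E6.5, against 12.13, 7.55 and 7.85 in NP replicates 1, 3 and 4, with NP replicate 2 between these. The groups did not overlap, yet NP replicates 3 and 4 were closer to the E6.5 mice than to NP replicate 1. The change was -2.86 (adjusted p = 0.00275), and it was -1.98 without NP replicate 1 and -3.51 without NP replicate 3.

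Tight junction genes were among those that fell as well. Claudins seal the space between epithelial cells. Of 18 measured claudins, tight junction genes and mucins 7 fell and none rose, with a median change of -0.78 and a mean level of 5.74 to 5.94 at E6.5 and 6.41 to 7.31 in NP. Cldn3 was 7.42, 8.00, 7.27 and 7.68 at E6.5, against 9.80, 9.61, 10.71 and 10.62 in NP (change -2.59, adjusted p = 0.000265). Cldn23 fell by 2.58 (adjusted p = 5.67e-05) and Cldn7 by 1.40 (adjusted p = 0.00071). Tjp3, a scaffold of the junction, was lower as well, with its probe not well above background at E6.5 and the other probe, detected on 3 E6.5 arrays and 4 NP arrays, at a change of -1.75 (adjusted p = 0.000254 over the kept probes). Cldn4 fell by 1.64 (adjusted p = 0.013) but was not called without E6.5 replicate 3 or NP replicate 4 (adjusted p 0.0507 and 0.0555). In every one of these called claudins the groups did not overlap, as in 862 of the 1102 called genes. The loss of luminal epithelium around the embryo and its removal with the decidua cannot be told apart in these values.

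Gland markers went both ways. Of 10 measured, 3 rose and 3 fell, with a median change of -0.33. The mean level was 7.47 to 7.76 at E6.5 and 5.21 to 6.68 in NP, and it holds the large increases of the 3 that rose, Prss28, Prss29 and Spink1. The 3 that fell are Cxcl15 (change -2.82), Wfdc3, a gene of the WAP family (change -1.74, adjusted p = 0.045), and Aldh1a1, a retinaldehyde dehydrogenase (change -1.33, adjusted p = 0.0116). All 3 had overlapping groups, and the lower count was 0 without E6.5 replicate 1 and 1 without E6.5 replicate 3 or 4 or NP replicate 3 or 4. Wfdc3 changed by -2.41 without NP replicate 1, -2.39 without NP replicate 2 and -0.98 without NP replicate 3.

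Single epithelial genes went further than the markers. Fxyd4, a small regulator of the sodium pump, was 4.82, 4.70, 4.61 and 4.68 at E6.5, not well above background on any array, against 9.54, 9.31, 11.86 and 11.82 in NP. It was lower at E6.5 by at least 5.65 log2 units (adjusted p = 1.06e-09), and both of its probes showed this. Alox12e, an epidermal-type lipoxygenase, was 5.06, 5.18, 5.19 and 4.69 at E6.5, against 8.86, 9.39, 10.18 and 9.21 in NP (change -4.38 ± 0.37, SE, adjusted p = 1.21e-09). Sprr2f, a small proline-rich protein of a family with closely similar sequences, was 6.86, 7.42, 9.05 and 6.16 at E6.5, against 14.00, 11.28, 10.40 and 10.35 in NP. Its change was -4.13 ± 0.81 (adjusted p = 0.000851) and -3.30 without NP replicate 1.

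Of 32 measured genes of water and ion transport 3 rose and 2 fell (1 without NP replicate 2). Slc26a4, the anion exchanger pendrin, rose by 2.05 (adjusted p = 3.77e-05), and Aqp8, a water channel that is also on the oestrogen list, rose by 3.33 (adjusted p = 0.000296). Cftr, the chloride channel of epithelia, was not well above background at E6.5 and read 9.11, 8.20, 4.83 and 5.44 in NP. It was at least 3.75-fold lower at E6.5 (adjusted p = 0.00933), overlapped at NP replicate 3, and was not called without NP replicate 1 or 2 (adjusted p 0.061 and 0.0633). Its fitted change of -2.18 was -1.44 without NP replicate 1, which is below that bound, and -2.87 without NP replicate 3.

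**Figure D3:**
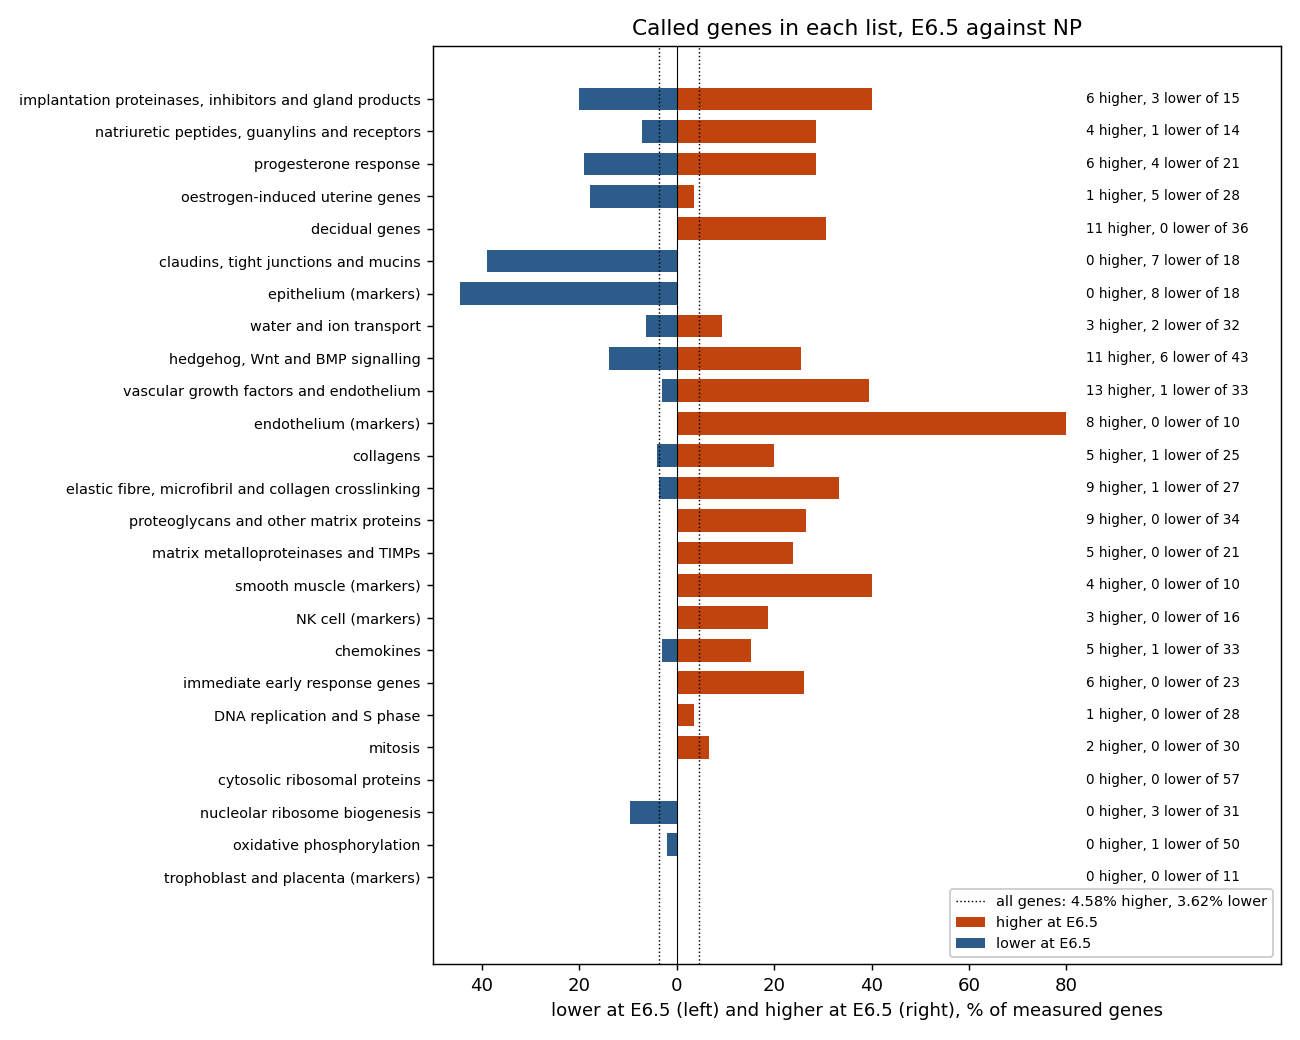
Share of measured genes of 25 lists that were lower (left bars) and higher (right bars) at E6.5, in percent, with counts beside them and dotted lines at the share over all genes. Epithelial markers (8 of 18 lower) and endothelial markers (8 of 10 higher) stand at opposite ends, and ribosomal protein and trophoblast lists hold no called gene.

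Some inhibitors and ligands of Wnt and BMP signalling were called. Of 43 measured hedgehog, Wnt and BMP genes 11 rose, 6 fell and 26 did not pass the test. Secreted frizzled-related proteins bind Wnt ligands and keep them from their receptors. Sfrp4 was 9.80, 9.82, 10.56 and 10.55 at E6.5, against 6.70, 6.30, 7.5 and 7.27 in NP (change 3.24 ± 0.31, SE, adjusted p = 1.52e-08). Sfrp1 rose by 2.40 (adjusted p = 4.87e-05), and Dkk3 by 1.31 (adjusted p = 0.00386). Noggin and chordin bind BMP ligands. Nog was 7.94, 8.60, 7.78 and 8.41 at E6.5, against 4.73, 4.96, 5.10 and 5.34 in NP (change 3.15, adjusted p = 3.53e-06), and Chrd rose by 1.66 (adjusted p = 6.79e-07). The inhibitors Sfrp2, Sfrp5, Dkk1, Dkk2, Wif1 and Grem1 did not pass the test.

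Ligands moved both ways. Besides Wnt6, described above, Tgfb1 rose by 0.88 (adjusted p = 0.00701) and Tgfb3 by 0.94 (adjusted p = 0.000786). Bmp7 was 5.53, 5.79, 4.92 and 5.02 at E6.5, against 6.80, 8.21, 7.38 and 8.05 in NP (change -2.29, adjusted p = 1.14e-06). Wnt7a, made by the luminal epithelium, was not well above background at E6.5 and read 7.26, 8.25, 5.15 and 5.82 in NP, at least 3.10-fold lower at E6.5 (adjusted p = 0.000191). Wnt16 was lower too, with its probe not well above background at E6.5. Of its other probes the one detected on 2 E6.5 arrays and 4 NP arrays changed by -1.28 (adjusted p = 4.59e-06 over the kept probes). Gata3, a transcription factor named after its values were seen, rose by 3.13 (adjusted p = 2.43e-05), with 7.32 to 8.64 at E6.5 and 4.63 to 5.21 in NP.

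Vessel genes were among those that rose. Of 33 measured vascular growth factors and endothelial genes 13 rose, 1 fell (3 without NP replicate 4) and 19 did not pass the test, with a median change of 0.59. With 1 mouse left out 9 to 17 were higher, and with median scaling 8 were. Vegfd, a growth factor of lymph and blood vessels, was 10.02, 9.79, 10.42 and 9.56 at E6.5, against 7.90, 6.85, 8.42 and 7.36 in NP (change 2.31 ± 0.24, SE, adjusted p = 5.56e-08). Aplnr, the apelin receptor, rose by 1.45 (adjusted p = 0.000829). Vegfa changed by -0.29 (interval -0.81 to 0.23, adjusted p = 0.641). Among endothelial markers, all of which are also on the longer list, 8 of 10 rose. Their mean level was 9.41 to 9.63 at E6.5 and 8.21 to 9.22 in NP. Sox18, a factor of endothelial cells, rose by 1.22 (adjusted p = 2.99e-05), Egfl7 by 1.05 (adjusted p = 4.78e-06) and Pecam1 by 0.89 (adjusted p = 0.00194). The 8 calls became 5 without NP replicate 1 and 3 with median scaling.

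Extracellular matrix genes of several classes were among those higher. Of 27 measured elastic fibre, microfibril and collagen crosslinking genes 9 rose and 1 fell (0 without NP replicate 1 or 2 or any 1 E6.5 mouse), and of 34 proteoglycans and other matrix proteins 9 rose and none fell. The second count was 5 without NP replicate 2. Pcolce, which helps to trim fibrillar procollagen, was 11.19, 10.67, 11.03 and 11.39 at E6.5, against 8.82, 8.66, 9.87 and 9.14 in NP (change 1.95 ± 0.26, SE, adjusted p = 7.65e-06). Lox, which crosslinks collagen and elastin, rose by 1.43 (adjusted p = 9.68e-05), and Fbln1, a fibulin, by 1.47 (adjusted p = 0.00064). The small proteoglycans Prelp and Bgn rose by 1.89 (adjusted p = 1.52e-06) and 1.15 (adjusted p = 6.24e-08).

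Among laminins, the basement membrane proteins, Lama1 rose by 2.14 (adjusted p = 0.00607), Lamb2 by 1.43 (adjusted p = 3.77e-05) and Lamc1 by 1.27 (adjusted p = 6.4e-05). Lama2 (change 0.45, adjusted p = 0.179) and Lama4 (change -0.09, adjusted p = 0.903) did not pass the test. Of 25 measured collagens 5 rose and 1 fell, the higher count being 3 without E6.5 replicate 1 or 3. The lower count was 0 without E6.5 replicate 1 or 2 or NP replicate 2 and 3 without NP replicate 1, 3 or 4. Col14a1 rose by 1.63 (adjusted p = 5.78e-05) and Col4a5, a basement membrane chain, by 1.40 (adjusted p = 0.00471). Of 21 measured matrix metalloproteinases and their inhibitors 5 rose and none fell. Mmp7, matrilysin, was 7.12, 8.20, 7.46 and 7.27 at E6.5, against 5.36, 4.43, 4.34 and 4.56 in NP (change 2.84, adjusted p = 0.000148). Mmp2, a gelatinase, rose by 1.08 (adjusted p = 8.72e-06) and Timp1, an inhibitor of these enzymes, by 1.62 (adjusted p = 2.57e-06).

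Some smooth muscle genes rose. Of 10 smooth muscle markers 4 rose (2 without E6.5 replicate 1 or NP replicate 2) and none fell, with a median change of 0.58 and a mean level of 11.01 to 11.14 at E6.5 and 10.32 to 10.63 in NP. Tagln, the actin-binding protein SM22, was 12.21, 12.02, 11.90 and 12.19 at E6.5, against 11.17, 10.47, 10.42 and 10.71 in NP (change 1.39 ± 0.21, SE, adjusted p = 4.68e-05). Des, desmin, rose by 0.66 (adjusted p = 0.00148). Acta2, smooth muscle actin, changed by -0.09 (interval -0.39 to 0.20, adjusted p = 0.834), and Myh11, the smooth muscle myosin, by 0.42 (interval 0.03 to 0.81, adjusted p = 0.214). Cnn1, calponin, was higher by 0.79 (adjusted p = 0.0333) and Myocd, the master coactivator of smooth muscle genes, by 0.96 (adjusted p = 0.0297). Neither call was firm: Cnn1 was lost without any of 4 mice (E6.5 replicates 1 and 3, NP replicates 2 and 3) and Myocd without any of 5 (E6.5 replicates 1 and 2, NP replicates 1, 2 and 4), with adjusted p values up to 0.151 and 0.12. The other Myocd probes changed by 0.17 and 0.41 and were not called (adjusted p = 0.847 and 0.239 over the kept probes). With median scaling 2 of the 10 markers rose. In the longer list of contractile genes 5 of 24 rose, 3 without E6.5 replicate 1 or NP replicate 2, with a median change of 0.40. Epithelial markers were lower in the same samples, and the part of dissection in these values was not tested. Gja1, connexin 43 of the gap junctions, rose by 0.89 (adjusted p = 0.0187) with overlapping groups, and was not called without E6.5 replicate 3 or NP replicate 3 or 4 (adjusted p 0.0579 to 0.1). No kept probe carried Oxtr, Ptgs1, Ptgs2 or Areg as its only gene symbol, and these genes are not analysed here. This does not show that they were absent from the array.

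Immune genes changed in a few named families. Uterine natural killer cells gather in the decidua and carry granzymes. Of 16 measured natural killer markers 3 rose and none fell, and the mean level was 5.81 to 6.09 at E6.5 and 4.78 to 5.67 in NP. Gzmg was 8.58, 7.91, 7.99 and 6.74 at E6.5, against 5.57, 4.52, 4.80 and 4.46 in NP (change 2.97, adjusted p = 0.000994). Gzme rose by 2.51 (adjusted p = 0.00244) and Gzmd by 2.46 (adjusted p = 0.00397), but these granzymes are near-identical in sequence and may share signal. Prf1, perforin, did not pass the test (change 1.26, interval 0.20 to 2.32, adjusted p = 0.153).

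Chemokines rose in 5 and fell in 1 of 33 measured genes, the higher count being 3 without E6.5 replicate 2 or NP replicate 4 and 2 without E6.5 replicate 3. The lower count was 0 without E6.5 replicate 1, 3 or 4 and 2 without NP replicate 3. Cxcl14 was 11.58, 10.77, 11.58 and 11.73 at E6.5, against 9.79, 9.60, 7.28 and 8.30 in NP (change 2.67, adjusted p = 0.000229), and Ccl21a, a lymphatic chemokine with near-identical copies, rose by 1.41 (adjusted p = 0.000481). Of 10 measured macrophage markers 2 rose, 1 without any of 6 mice (E6.5 replicates 1, 2 and 4, NP replicates 1, 2 and 4). These were Mrc1, the mannose receptor (change 1.00, adjusted p = 0.00276), and Fcgr3, an antibody receptor (change 0.64, adjusted p = 0.0343), which is the call that was lost (adjusted p 0.0578 to 0.121). MHC genes gave 0 calls of 15 by limma, 0 at an unadjusted p under 0.05 and 0 under every alternative.

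Genes of cell growth were called at shares of 3.57% (DNA replication), 6.67% (mitosis) and 9.68% (nucleolar ribosome biogenesis), against 8.2% of all genes. Of 28 measured DNA replication genes only Rrm2, a subunit of ribonucleotide reductase, was called (change 2.10, adjusted p = 0.00301). Of 30 mitosis genes 2 rose, and 1 without E6.5 replicate 1, 3 or 4 or NP replicate 1 or 4. The mean level of the DNA replication list was 7.24 to 8.02 at E6.5 and 7.12 to 8.01 in NP, so that both groups spanned nearly the same range. Cytosolic ribosomal proteins gave 0 calls of 57 by limma and 3 at an unadjusted p under 0.05, with 1 lower under median scaling and up to 2 lower under other alternatives. Of 31 nucleolar ribosome biogenesis genes 3 fell, among them Nhp2, a protein of ribonucleoprotein particles (change -0.69, adjusted p = 9.97e-05), with a median of -0.36. Without NP replicate 1 the count was 11 and with array weights 12.

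Of 23 measured immediate early genes, which cells switch on within minutes of a stimulus, 6 rose and none fell. Egr2 was 9.19, 8.71, 8.38 and 8.66 at E6.5, against 7.14, 5.93, 6.18 and 6.46 in NP (change 2.31, adjusted p = 3.42e-06). The related factor Egr1 was called (change 1.72, adjusted p = 0.0253) with overlapping groups, and not without E6.5 replicate 1, 2 or 4 or NP replicate 2 (adjusted p 0.075 to 0.117). Hpgds, a prostaglandin D synthase, rose by 1.30 (adjusted p = 0.0138), 1 of 3 higher and 1 lower among 15 measured prostaglandin genes, where the higher count was 1 without E6.5 replicate 2 or NP replicate 2 and the lower count 0 without E6.5 replicate 1 or 2 or NP replicate 2 or 4.

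The E6.5 mice were more alike than the NP mice. Correlations of the log2 values over all genes were 0.985 to 0.987 between E6.5 mice and 0.942 to 0.987 between NP mice, while between the groups they ran from 0.938 to 0.967. NP replicates 3 and 4 were as close to each other (0.987) as any pair of E6.5 mice, and NP replicates 1 and 3 were the farthest apart (0.942). The SD was above 1 log2 unit in 14 genes among the E6.5 mice and in 343 genes among the NP mice, and its median was 0.199 at E6.5 and 0.243 in NP. No test of this difference in spread was made.

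Genes that oestrogen is known to induce in the mouse uterus were among these. Of 28 measured, 1 rose (2 without NP replicate 1) and 5 fell (9 without NP replicate 3), with a median change of -0.71. Their mean level was 6.85, 7.19, 7.17 and 6.91 in the E6.5 mice, against 9.59, 8.23, 6.58 and 6.93 in the NP mice. NP replicates 1 and 2 were thus above all E6.5 mice and NP replicate 3 was below them. Lcn2, lipocalin 2, was 8.38, 10.54, 10.97 and 9.66 at E6.5, against 14.62, 5.32 and 6.33 in NP replicates 1, 3 and 4. NP replicate 2 was below NP replicate 1 and above all E6.5 mice, so that the E6.5 mice lay between both pairs of NP mice (change 0.19, interval -2.34 to 2.72, adjusted p = 0.973).

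Ltf, lactoferrin, was 9.10, 10.48, 11.19 and 9.13 at E6.5, against 14.49, 14.24, 8.43 and 12.46 in NP (adjusted p = 0.199). Clca1, a secreted regulator of mucus, was 4.91 to 5.68 at E6.5, against 13.46, 9.82, 4.39 and 5.76 in NP (adjusted p = 0.221), and Inhbb, an activin subunit, was 6.91 to 7.72 at E6.5, against 11.75, 10.88, 6.43 and 6.81 in NP (adjusted p = 0.193). By the probe taken none of these 3 passed the test. The other Ltf probe, detected on 1 E6.5 array and 4 NP arrays, was lower (change -1.94, adjusted p = 0.0241 over the kept probes). For each of the 3 genes NP replicates 1 and 2 lay above all E6.5 mice. P2ry14, a receptor for UDP-sugars, was highest in the same NP mice and still called: it was 7.87 to 8.28 at E6.5, against 12.76, 13.16, 9.68 and 9.93 in NP (change -3.31, adjusted p = 1.15e-05), and -2.71 without NP replicate 2. Padi2, a peptidylarginine deiminase, was called with an adjusted p of 0.0139, but not without NP replicate 1 or E6.5 replicate 1 (adjusted p 0.0647 and 0.0834). Its change was -2.13, and -1.30 without NP replicate 1. Arg1, arginase 1, was not well above background at E6.5 and read 12.67, 7.56, 4.77 and 4.58 in NP. Its call (at least 5.30-fold lower, adjusted p = 0.045) was lost without any 1 E6.5 mouse and without NP replicate 1 or 2 (adjusted p 0.0846 to 0.192). Its change was -1.17 without NP replicate 1, -3.81 without NP replicate 3 and -3.87 without NP replicate 4, so the bound rests on the first of these mice.

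**Figure D4:**
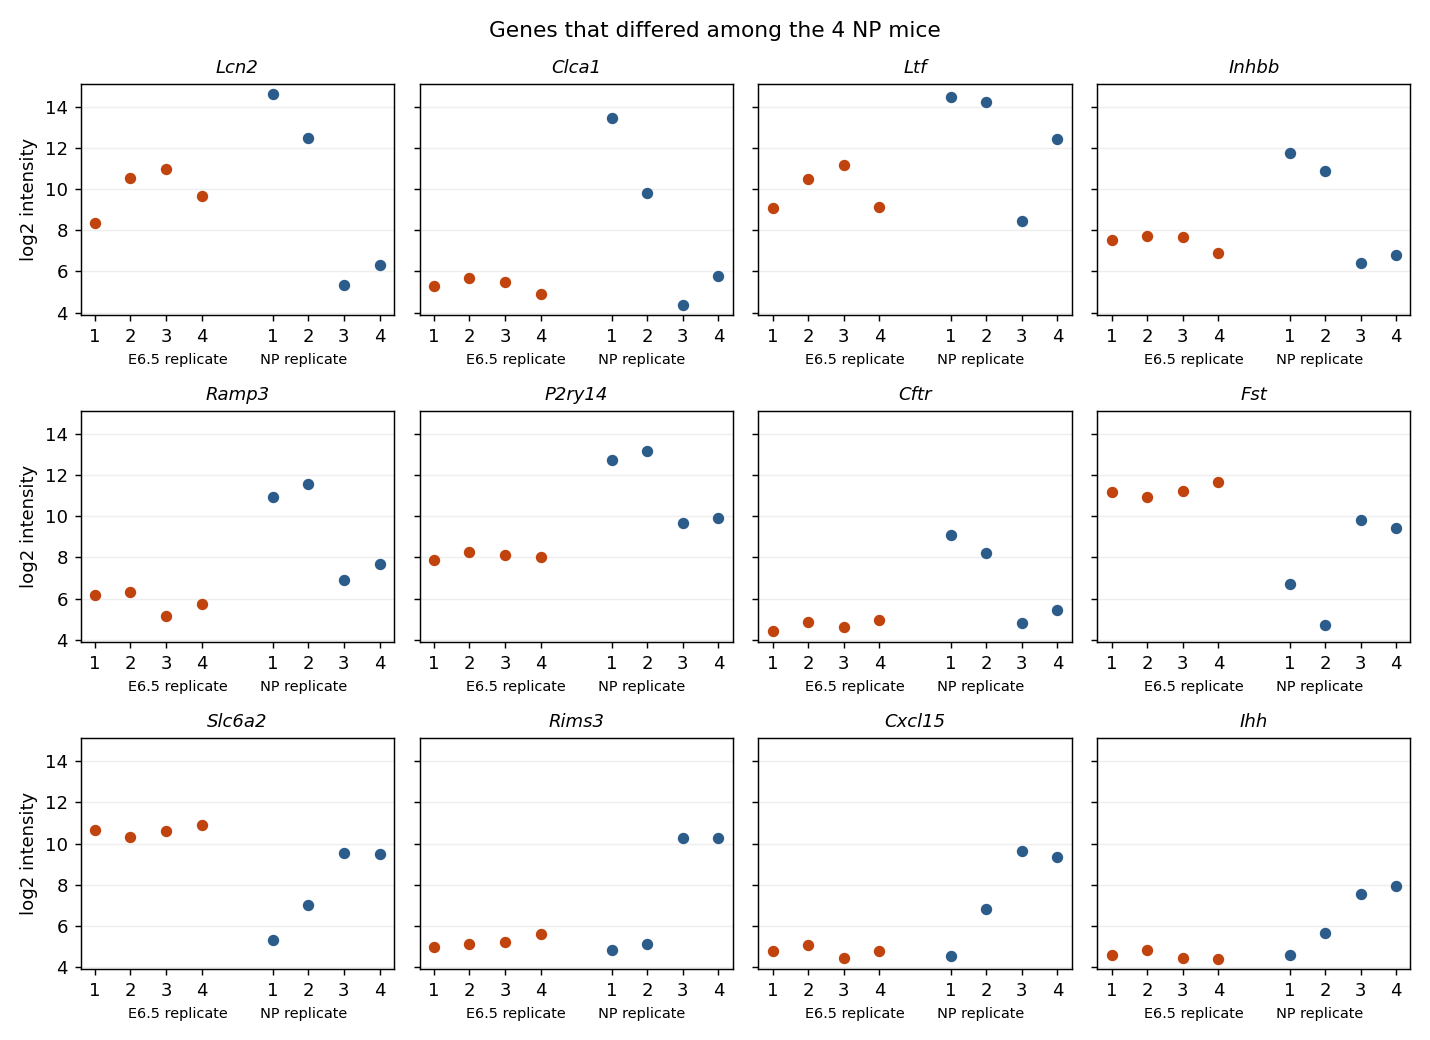
Normalised log2 intensity of 12 genes in each E6.5 mouse (left in each panel) and each NP mouse (right), 1 point a mouse. Lcn2, Clca1, Inhbb, Ramp3, P2ry14 and Cftr were highest in NP replicates 1 and 2, while Rims3, Cxcl15, Ihh, Slc6a2 and Fst were higher in NP replicates 3 and 4 than in NP replicates 1 and 2.

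Other genes were high in the opposite NP mice. Cxcl15, a chemokine of gland epithelium, was 4.44 to 5.06 at E6.5, against 4.54, 6.83, 9.62 and 9.35 in NP. It was called (change -2.82, adjusted p = 0.0268), but the groups overlapped and the call was lost without any of 5 mice, E6.5 replicates 1, 3 and 4 and NP replicates 3 and 4 (adjusted p 0.0555 to 0.121). Its change was -3.83 without NP replicate 1, -2.14 without NP replicate 3 and -2.23 without NP replicate 4. Rims3, a synaptic protein named after its values were seen, was 4.95 to 5.61 at E6.5, against 4.81, 5.10, 10.28 and 10.28 in NP (change -2.39, adjusted p = 0.0338), and was not called without any 1 E6.5 mouse or without NP replicate 3 or 4 (adjusted p 0.0509 to 0.194, change -1.50 without either NP mouse). Slc6a2, the noradrenaline transporter and likewise named after its values were seen, was 10.31 to 10.88 at E6.5, against 5.30, 7.00, 9.56 and 9.50 in NP (change 2.78, adjusted p = 0.00202, and 1.93 without NP replicate 1). Its other probes were not called. They changed by 0.79, detected on 4 E6.5 and 3 NP arrays, and by 0.51 (adjusted p = 0.194 and 0.211 over the kept probes). The part of the oestrous cycle in the spread among the NP mice was not tested.

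Later time points of the series, each with 4 or 5 mice, place these levels in the course of pregnancy, as a description. Prss29 averaged 4.66 ± 0.17 in NP, 13.70 ± 0.25 at E6.5, 8.48 ± 2.62 on E8.5 and 4.89 ± 0.55 on E17.5 (SD). Spink1 was also highest at E6.5, at 13.76 ± 0.17, and averaged 7.76 ± 2.28 at E8.5. It averaged 4.76 ± 0.25 at E15.5 and 8.78 ± 2.94 at E17.5. Nppa averaged 5.14 ± 0.31 in NP, 11.22 ± 0.37 at E6.5, 8.95 ± 1.24 on E8.5 and 6.90 ± 0.19 on E17.5. Prap1 averaged 14.00 ± 0.28 at E6.5, 12.04 ± 4.57 on E8.5, where the mice spread widely, 14.31 ± 0.10 on E10.5 and 14.52 ± 0.05 on E17.5. Hsd11b1 averaged 10.82 ± 0.26 at E6.5 and 14.40 ± 0.25 at E17.5. Of the genes lower at E6.5, Krt8 averaged 11.00 ± 1.11 in NP, 8.20 ± 0.23 at E6.5, 10.22 ± 1.00 on E10.5 and 12.59 ± 0.44 on E17.5, and Cldn3 averaged 9.92 ± 0.26 on E17.5, against 10.19 ± 0.56 in NP. Fxyd4 averaged 10.63 ± 1.40 in NP, 4.70 ± 0.09 at E6.5 and 7.93 ± 0.92 on E17.5.

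**Figure D5:**
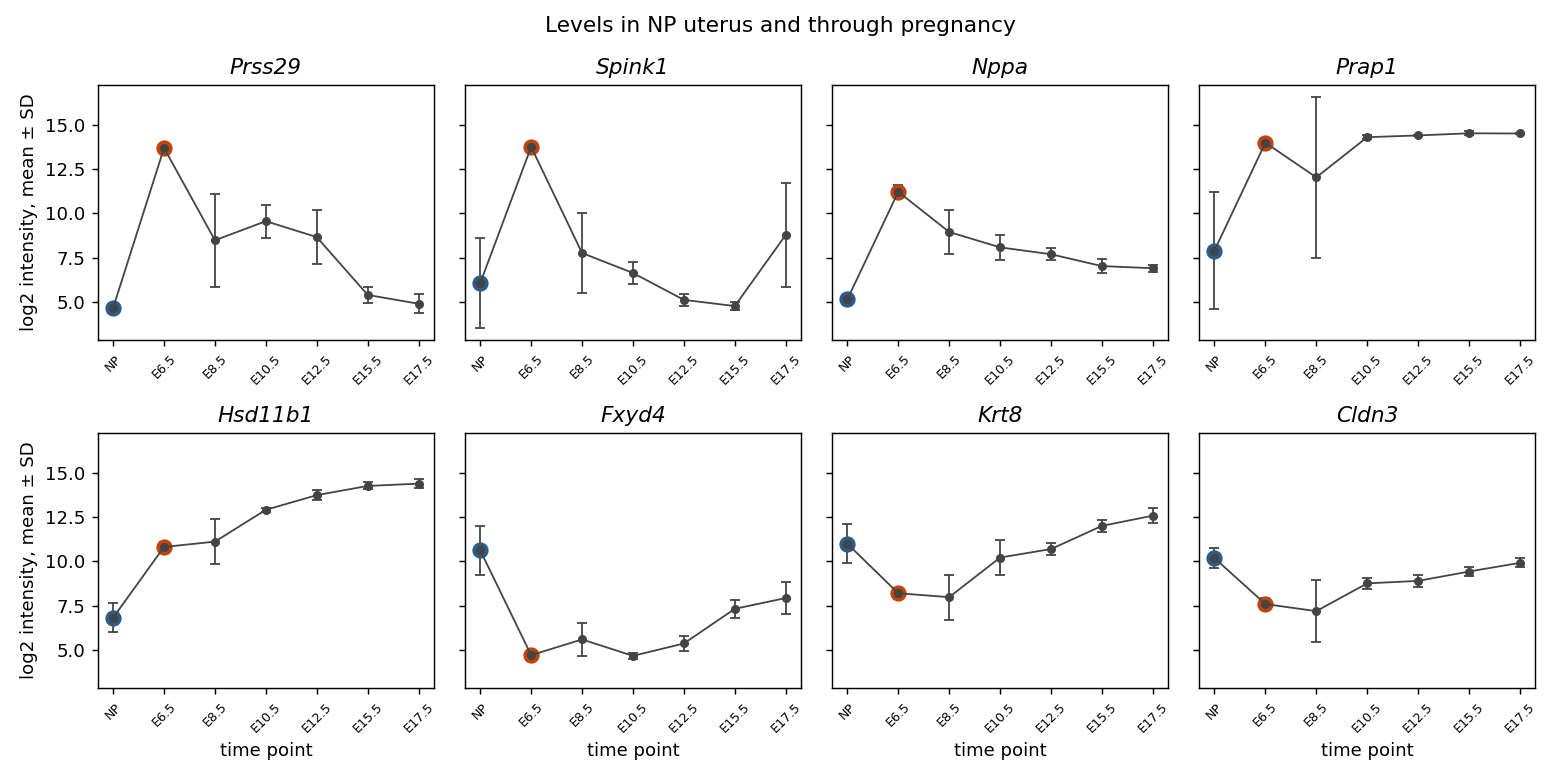
Mean normalised log2 intensity ± SD of 8 genes in NP uterus and at 6 days of pregnancy (n = 4 for NP, E6.5 and E8.5 and n = 5 later), with E6.5 in orange and NP in blue. Prss29, Spink1 and Nppa are highest at E6.5, while Krt8 and Cldn3 are lowest at E6.5 and E8.5.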

How the data were processed

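RNA of uterus was measured on 1 array per mouse. The authors deposited a linear-scale intensity of every probe on each array before normalisation, a detection p-value beside it, and log2 values made with limma by control-based background correction, quantile normalisation and log2. The sources used here do not say how the scanner output was summarised. Here the intensities were processed anew with limma 3.58.1 in R 4.3.3 (neqc, offset of 16, all 32 arrays). Probes with a detection p above 0.05 on all arrays were left out (5528 of 25697). The results differed from the deposited log2 values by a median of 0.000302. Of 20169 probes kept, 18903 carried 1 gene symbol in the platform annotation, and 13430 of 13439 genes matched a current RefSeq symbol. For the 3704 genes with several probes the one with the highest SD was taken. No called gene had another probe called the opposite way.

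E6.5 was compared with NP in 1 limma fit of all 7 groups, 2-sided, at an adjusted p of at most 0.05. The fit was tested on simulated data in which all groups shared 1 spread per gene. That test does not cover the wider spread among the NP mice. The number of arrays limits the precision. Each array is a separate mouse.

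The 56 gene lists and the rule for named genes were chosen with earlier results of these data known. The rule took the 15 largest changes in each direction among called genes whose groups do not overlap, up to 5 called genes of each list, and hormone and implantation genes set by name, of which a part is given. List members that were not called, or ranked below the first 5, were added to describe a list. Lists are described by counts and medians, without a test. The alternatives were the deposited values, other background corrections, normalisations, filters, probe choices and fits, a replicate block, a stricter threshold and each mouse left out. Testing each probe on its own was added after seeing the data.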

Additional observations from a re-analysis of the deposited data

Results flagged for a closer look

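In 12 cases, 1 mouse lay far from the other 3 of its group by Dixon's gap criterion, which chance alone meets in about 1 of 20 groups, and 260 groups of 4 mice were looked at. NP replicate 1 was the mouse in 5 of the 12. It was high for Akr1c18 (6.99, the others 4.52 to 4.69), Padi2 (10.42, the others 6.93 to 7.31), Lif (5.78, the others 4.43 to 4.57), Klf5 (10.05, the others 9.60 to 9.66) and Bmp2 (4.67, the others 4.35 to 4.38, not detected on any of the 4 arrays). NP replicate 4 was high for Npy (4.62, the others 4.36 to 4.39), which was not detected on any NP array.

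At E6.5, replicate 3 was high for Guca2b (10.14, the others 8.67 to 8.78) and Bgn (14.39, the others 14.21 to 14.23). Replicate 2 was low for Cxcl14 (10.77, the others 11.58 to 11.73) and Lamc1 (11.21, the others 11.72 to 11.79). Replicate 4 was high for Krt19 (6.89, the others 6.21 to 6.30), and replicate 1 was low for Muc1 (5.44, the others 5.71 to 5.75).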

How the results depend on the processing

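Over 23 alternatives no called gene named here changed direction. Of 113 such genes, 53 were called under all of them. Leaving aside the replicate block, the 2 fits of the 8 arrays alone and the threshold of 0.01, 87 were called wherever they were tested. The filter for detection on at least 4 of the 8 arrays tested 109 of the 113. In each of the 2 fits of the 8 arrays alone 32 of the 113 lost their call. Pgr, Muc1, Ramp3, Fst, Fkbp5, Ihh, Elf3, Wnt7a, Tjp3, Lox, Col4a5, Mrc1 and Slc6a2 were among those lost in both. The 1102 calls (616 higher, 486 lower) became 610 (191 lower) with the 8 arrays normalised and fitted alone and 612 (193 lower) with these 8 fitted alone. Both fits take the spread from fewer samples and from these 2 groups only. At the threshold of 0.01 there were 628 calls (379 higher, 249 lower). Leaving out 1 mouse gave 809 to 1237 calls, with 444 to 667 higher and 323 (without E6.5 replicate 1) to 570 lower. With array weights 729 were higher and 727 lower, and with median scaling 42.9% of calls were higher, against 55.9%. The cause was not tested. Testing each of the 20169 kept probes on its own, chosen after seeing the data, gave 1555 calls.

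With the replicate number as a block 331 genes were called (239 higher, 92 lower). Same-numbered mice deviated together in 1 of 4 pairs only (correlations -0.051, -0.153, -0.090 and 0.145), and no label ties the numbers to litters or days, so the numbers were not taken to pair the mice. No chip identity was given in the file headers, so a block for the chip was not run. Genes near the detection limit have no reliable order, and with 4 mice a group small changes can miss the threshold.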

Other observations

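Several groups not described above held called genes, some groups at a share below that over all genes. Of all genes 8.2% were called, 4.58% as higher and 3.62% as lower. Clu, clusterin, a secreted chaperone of the complement list (3 of 18 higher), was 12.15, 12.63, 13.07 and 13.32 at E6.5, against 11.02, 10.97, 9.95 and 10.19 in NP (limma change 2.26, adjusted p = 2.23e-05). Slc2a1, the glucose transporter GLUT1, was 10.74 to 11.62 at E6.5 and 8.99 to 10.14 in NP (change 1.73, adjusted p = 3.29e-06), 1 higher and 2 lower of 25 measured glycolysis and hypoxia genes. Without 1 mouse 1 to 2 were higher and 0 to 3 lower, 0 without E6.5 replicate 1 or 3 or NP replicate 1. Among insulin-like and EGF-family growth factor genes 5 of 29 were higher and 2 lower (1 without E6.5 replicate 2, 3 or 4 or NP replicate 4). Fgf7, a stromal growth factor for epithelium, was higher by 1.86 (adjusted p = 7.04e-05), and Nrg1, neuregulin 1, was lower, at 5.62 to 6.45 in E6.5 mice and 6.66 to 9.58 in NP mice (change -1.99, adjusted p = 0.00156).

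Klf5, a Krüppel-like factor, was higher by 1.25 (adjusted p = 1.21e-05), among 4 higher and 5 lower of 30 measured uterine transcription factors. The higher count was 2 without E6.5 replicate 2 or NP replicate 1 or 2 and 1 without E6.5 replicate 3, and the lower count was 3 without E6.5 replicate 3 or NP replicate 2, 3 or 4. Of 32 interferon response genes 3 (9.38%, against 8.2% of all genes) were higher, and Ifit2 rose by 1.26 (adjusted p = 2.31e-05), the count being 1 without E6.5 replicate 2. The other Ifit2 probe, detected on 4 E6.5 and 4 NP arrays, was not called (change 0.75, adjusted p = 0.156 over the kept probes). Of 16 clock genes 2 were higher and 1 lower (0 without E6.5 replicate 1): Nfil3 rose by 1.48 (adjusted p = 0.000101) and Per1 by 0.82 (adjusted p = 0.00103), and hours of collection are not given in the sources used here. Skeletal muscle markers were higher in 4 of 8, with Tnnt3, a fast troponin, at 7.59 to 8.11 in E6.5 mice and 6.02 to 6.71 in NP mice (change 1.46, adjusted p = 0.00443). Their mean level was 6.32 to 6.58 at E6.5 and 5.87 to 6.11 in NP, and the count was 2 without E6.5 replicate 2 or 3 or NP replicate 1 or 2. Of 50 oxidative phosphorylation genes 1 (2%, against 8.2% of all genes) was lower (2 without NP replicate 1 or 3). Retnlg, a resistin-like gene of neutrophils, was the 1 lower gene of 7 neutrophil markers (change -1.54, adjusted p = 0.00148, with overlapping groups), and 2 were lower without NP replicate 3. By limma, markers of T cells (10 measured), B cells (4) and red blood cells (7) gave 0 calls and 0 genes at an unadjusted p under 0.05, with 1 T cell marker higher under median scaling. Markers of mast cells (6), eosinophils (2) and oviduct and ovary (6) gave 0 calls as well, with 2, 1 and 1 genes at an unadjusted p under 0.05 and at most 1 call under any alternative. Of 1266 probes with no single gene symbol 77 were called, 44 of them higher.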
